A study of Mus musculus with 47 samples.

Results

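The insulin-like growth factor genes described here were 10 of the 20456 gene rows of the count table, chosen by symbol: the ligand Igf1, the receptor Igf1r, the binding proteins Igfbp1 to Igfbp7 and the related gene Igfbpl1. All 10 passed the filter on low counts, among 16892 genes tested, and Igfbpl1 passed it through the brain, since it had at most 32 reads in any lung and 2 in any liver. RNA of liver, lung and brain from mouse embryos at E18.5 was sequenced in 47 libraries of 12 groups. Embryos were homozygous for Daxx S226A, a substitution that removes binding of Daxx to the histone variant H3.3, or for Daxx Y130A, which removes binding of Daxx to Atrx, and each mutant was compared with wild-type embryos of the same litter set. The alleles were made by genome editing in C57BL/6N zygotes and crossed to C57BL/6J, and every cell of the embryo carried them. There were 4 litters for S226A (2875, 2881, 2970 and 2972) and 4 for Y130A (2848, 2851, 2974 and 3069), so that each group held 4 libraries except that of wild-type lung in the Y130A set, which held 3 and none of litter 3069, and 17 embryos contributed in all. For the wild type of litter 2970, lung was taken from 1 embryo and liver and brain from a different one. A gene count does not show a base substitution, so the genotypes could not be checked from the table.

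Insulin-like growth factor 1 is a peptide that promotes growth of the embryo and the young animal, made by many tissues and, after birth, largely by the liver under growth hormone. It acts through a receptor tyrosine kinase, Igf1r, which activates the phosphatidylinositol 3-kinase and Akt pathway. The binding proteins hold the growth factors in plasma and tissue fluid, prolong their stay there and limit or deliver them to the receptor, and Igfbp1 in the liver is well known to be repressed by insulin and raised by fasting.

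Total counts per library ranged from 15722147 to 54885020 reads, and the libraries of the S226A litters (15722147 to 26190403) did not overlap those of the Y130A litters (36351738 to 54885020). The tissue labels matched their markers: the summed CPM of 6 hepatocyte genes was 146592 to 224080 in the livers and at most 1308 elsewhere, 6 lung epithelium genes summed to 6827 to 11422 CPM in the lungs and at most 21.1 elsewhere, and 6 neuron genes summed to 4095 to 5422 CPM in the brains and at most 74.4 elsewhere. CPM are read counts scaled to a common library size with TMM factors, and RPKM are CPM divided by the exon length in kilobases. Livers of 2 embryos, the wild type of litter 2881 and the Y130A mutant of litter 2848, held transcripts of squamous epithelium (Krt5 at 34.2 and 27.9 CPM, against at most 0.243 in the other livers), and results in liver are given with and without them where the call changes. Every library is bulk tissue, so fewer cells of a type and less RNA per cell cannot be told apart.

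Levels of the 10 genes differed widely between tissues in the wild-type libraries. In liver the highest was Igfbp1, with a lowest, median and highest RPKM of 345.5, 657.6 and 991.6 over 8 libraries, followed by Igfbp2 (79.3, 225.7 and 380.7) and Igfbp4 (103.9, 121.7 and 126.9). Igfbp1 and Igfbp2 overlapped in RPKM, as did Igfbp2 and Igfbp4, while Igfbp4 lay above Igfbp7 in every library. Igfbp1 made up 60.0% ± 8.56 (SD, n = 8) of the summed RPKM of the 7 binding proteins in liver, and that sum was 1069 ± 288 RPKM, against 258 ± 9.07 in 7 lungs and 155 ± 21 in 8 brains. Below these came Igfbp7 (mean 27.4 RPKM), Igfbp3 (21.5), Igfbp5 (7.64), Igf1r (6.26), Igf1 (3.17) and Igfbp6 (2.74).

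**Figure D1:**
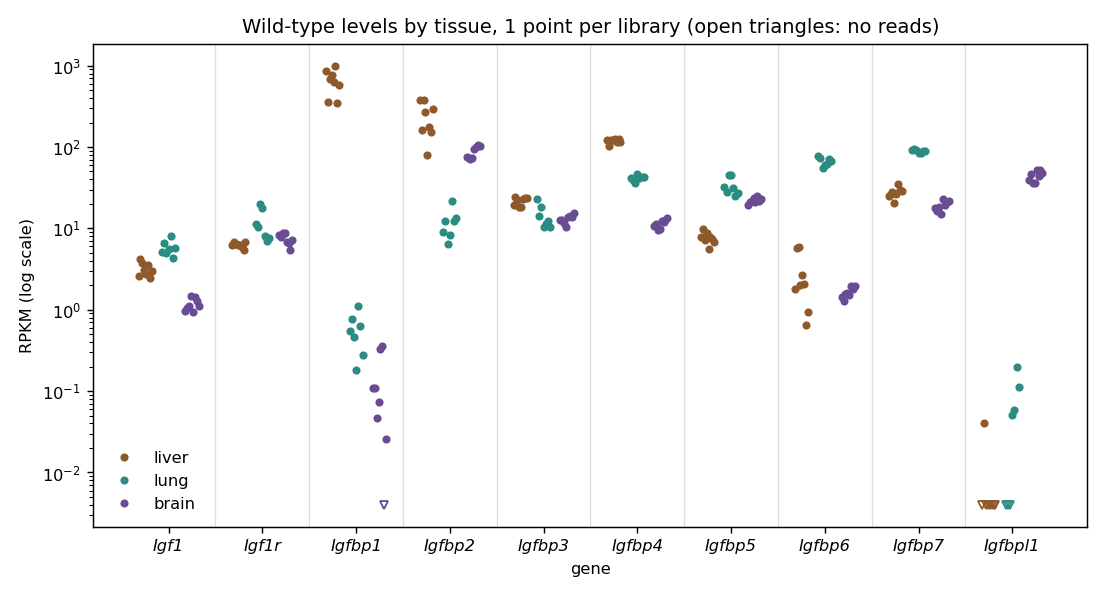
RPKM on a log scale of each gene in wild-type libraries of liver (n = 8), lung (n = 7) and brain (n = 8), with 1 point per library and open triangles for libraries without a read. Igfbp1 lies between 345.5 and 991.6 RPKM in liver and at most at 1.10 in lung and 0.361 in brain, Igfbpl1 lies between 35.9 and 52.8 RPKM in brain, and Igfbp6 between 54.9 and 77.5 RPKM in lung.

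In lung the order was different. Igfbp7, which binds the growth factors weakly and is made by endothelium, was highest with 83.6, 89.98 and 95.5 RPKM as the lowest, median and highest of 7 libraries, and Igfbp6, which prefers the second ligand of the family, was next with 54.9, 68.2 and 77.5 RPKM. Igfbp7 did not overlap Igfbp6, nor Igfbp6 Igfbp4, whereas Igfbp4 (mean 41.4 RPKM) and Igfbp5 (33.5) followed and overlapped each other. Igfbp7 took 34.7% ± 1.51 (SD, n = 7) and Igfbp6 25.9% ± 2.54 of the summed binding proteins. Igf1 was at 5.76 ± 1.21 RPKM in lung, 3.17 ± 0.613 in liver and 1.17 ± 0.203 in brain, and the 3 tissues did not overlap.

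In brain Igfbp2, a binding protein of foetal tissues and of the choroid plexus and meninges, led with 71.7, 85.1 and 107.3 RPKM over 8 libraries and 56.2% ± 2.39 (SD) of the summed binding proteins. Igfbpl1, a secreted protein related to the family, was next with 35.9, 45.2 and 52.8 RPKM. Neither overlapped its lower neighbour. The ligand Igf1 was near the bottom in brain, overlapping Igfbp6 (1.64 ± 0.246 RPKM), and Igf1r held a narrower range over the tissues than any binding protein but Igfbp3, with means of 6.26 RPKM in liver, 11.7 in lung and 7.51 in brain. With the length of the longest transcript in place of all exons, 4 places of the order changed in liver, 2 in lung and 2 in brain, all between neighbours.

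Tissue differences in the wild types were tested with edgeR and called at an adjusted p below 0.05 and a log2 fold change beyond 1. Between liver and lung 7 of the 10 genes were called, where 46.5% of all genes were. Between liver and brain 6 were called, where 59% of all genes were, and between lung and brain 7, where 51.2% were. The largest differences were those of Igfbp1, Igfbp6 and Igfbpl1. Igfbp1 was higher in liver than in lung by 10.13 on the log2 scale (SE 0.486, adjusted p = 3.9e-22 in edgeR) and than in brain by 12.35 (SE 0.502). Igfbp6 was higher in lung than in liver by a fold of 26.8 and than in brain by a fold of 40.9. Igfbpl1 had between 3057 and 9623 reads in the wild-type brains, 105.7 to 171.6 CPM over all 16 brains, and 2 reads in 1 of 16 livers, so no fold is given against liver. In a fit of the liver and lung libraries alone, with the embryo as a block, it did not pass the filter on low counts and was not tested, and the other 6 genes were called.

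Pairs of these genes lie next to each other in the genome. Igfbp1 (chromosome 11, 7197782 to 7202546, forward strand) and Igfbp3 (7206086 to 7213923, reverse strand) are 3539 bases apart, end to end, and Igfbp2 and Igfbp5 on chromosome 1 are 5457 bases apart in the same arrangement (GRCm38, GENCODE M21). Igfbp1 and Igfbp3 both had their highest mean in liver, Igfbp1 at 652.4 RPKM against 0.567 in lung and 0.132 in brain and Igfbp3 at 21.5 against 14.2 and 13.2. The Igfbp3 levels of liver (18.05 to 24.3 RPKM) overlapped those of lung (10.4 to 22.9), which in turn overlapped those of brain, and no difference of Igfbp3 between tissues passed the call rule, which also asks for a log2 fold change beyond 1 (0.66 for liver against lung, adjusted p = 2.7e-06 in edgeR). In the other pair Igfbp2 was lowest in lung (11.9 RPKM), and Igfbp5 was highest there (33.5).

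The sequences upstream of 3 genes are shown because their transcripts carry the results: Igfbp1 for its restriction to liver, and Igf1r and Igfbp5 for their differences in S226A liver. Each is the reference sequence from RefSeq (GRCm38.p6), read along the gene's own strand for the 250 bases before a RefSeq start and ended before the first annotated exon, and capitals mark motif matches, searched on both strands. The motifs in capitals are CAAAACA, the core of an insulin response element, and ATTAAC, part of a site for the hepatocyte factor HNF1, in Igfbp1. They are the GC box GGGCGG in Igf1r and a TATA box variant, TATTTAA, in Igfbp5. The window of Igf1 lay inside annotated exons and is not shown.
Igfbp1, chr11:7197537-7197781, forward strand: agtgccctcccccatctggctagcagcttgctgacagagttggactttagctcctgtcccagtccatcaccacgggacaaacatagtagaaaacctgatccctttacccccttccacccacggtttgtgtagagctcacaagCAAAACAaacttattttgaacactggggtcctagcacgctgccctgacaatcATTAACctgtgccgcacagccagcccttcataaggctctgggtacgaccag
Igf1r, chr7:67952007-67952256, forward strand: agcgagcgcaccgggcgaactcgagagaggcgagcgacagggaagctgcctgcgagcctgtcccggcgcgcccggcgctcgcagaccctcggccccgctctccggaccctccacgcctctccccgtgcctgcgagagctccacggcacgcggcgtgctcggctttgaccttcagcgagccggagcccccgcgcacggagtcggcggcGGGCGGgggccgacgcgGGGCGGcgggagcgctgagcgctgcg
Igfbp5, chr1:72874885-72875115, reverse strand: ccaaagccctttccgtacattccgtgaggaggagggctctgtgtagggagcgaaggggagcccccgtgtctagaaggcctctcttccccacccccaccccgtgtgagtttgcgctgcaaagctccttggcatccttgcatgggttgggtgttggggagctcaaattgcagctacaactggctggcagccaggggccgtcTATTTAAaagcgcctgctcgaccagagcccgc
Igf1r held 42 CpG dinucleotides in its window, more than 99.1% of 32851 RefSeq windows of the same length, while Igfbp1 held 5 and Igfbp5 held 10. Of all windows, 32.7% held a GC box, 4.18% the TATA box variant, 5.56% the insulin response core and 6.43% the HNF1 motif.

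In S226A liver 4 of the 10 genes passed the test against wild-type littermates (edgeR, adjusted p below 0.05), 1 higher and 3 lower, where 11.7% of all genes tested were called. By the study's stringent criteria (adjusted p below 0.01, log2 fold change beyond 1, SE below 1) 2 were called, Igf1 and Igfbp6, where 2.1% of all genes were. The groups did not overlap for 3 of the 10 genes, where 11.88% of all genes tested did not. Over the 9 genes with more than 3 reads in some library of both groups the median log2 fold change was -0.55, against -0.01 over all genes tested.

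Igf1, the ligand, was at 36.9, 41.7, 30.5 and 26.0 CPM in the wild-type livers of litters 2875, 2881, 2970 and 2972, and at 13.8, 10.3, 19.1 and 16.9 CPM in their S226A littermates. The groups did not overlap, and the mutant was lower in all 4 litters. Igf1 fell by 1.18 on the log2 scale (SE 0.189, adjusted p = 1.6e-05), from a mean of 33.8 ± 6.94 CPM (SD, n = 4) to 15.02 ± 3.85. Both groups rested on 222 to 635 reads per library. Leaving out each library in turn kept the log2 fold change between -1.31 and -1.03, with adjusted p-values up to 2.9e-04.

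Igf1r, the receptor, moved the other way. Its level was 108.3, 114.7, 105.1 and 104.8 CPM in the wild types of the same litters and 159.5, 140.5, 156.7 and 157.3 CPM in the mutants. Every mutant liver lay above every wild-type liver, and the mutant of litter 2881 was the lowest of the 4. Igf1r rose by 0.50 on the log2 scale (SE 0.122, adjusted p = 0.0040), a fold of 1.42.

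Of the binding proteins, Igfbp5, which is bound in the extracellular matrix, was at 43.2, 58.4, 53.3 and 46.4 CPM in the wild-type livers and at 27.8, 20.2, 31.5 and 33.0 CPM in the S226A livers. No mutant liver reached the lowest wild type, and litter 2881 held both the highest wild type and the lowest mutant. Igfbp5 fell by 0.85 on the log2 scale (SE 0.159, adjusted p = 1.8e-04).

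Igfbp6 was scarce in liver, at 6.54, 6.44, 2.27 and 2.03 CPM in the wild types and 0.928, 2.402, 0.597 and 2.04 CPM in the mutants, on 9 to 98 reads per library. The groups overlapped: the wild types of litters 2875 and 2881 stood above the rest, and in litter 2972 mutant and wild type were equal within the counts. Igfbp6 fell by 1.47 on the log2 scale (SE 0.365, adjusted p = 0.0049), but the adjusted p was 0.0816 with the litter as a block and 0.103 in a fit of only these libraries, so this call depends on the model. Without the 2 livers that held squamous transcripts it was lower by 1.20 (adjusted p = 0.038).

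**Figure D2:**
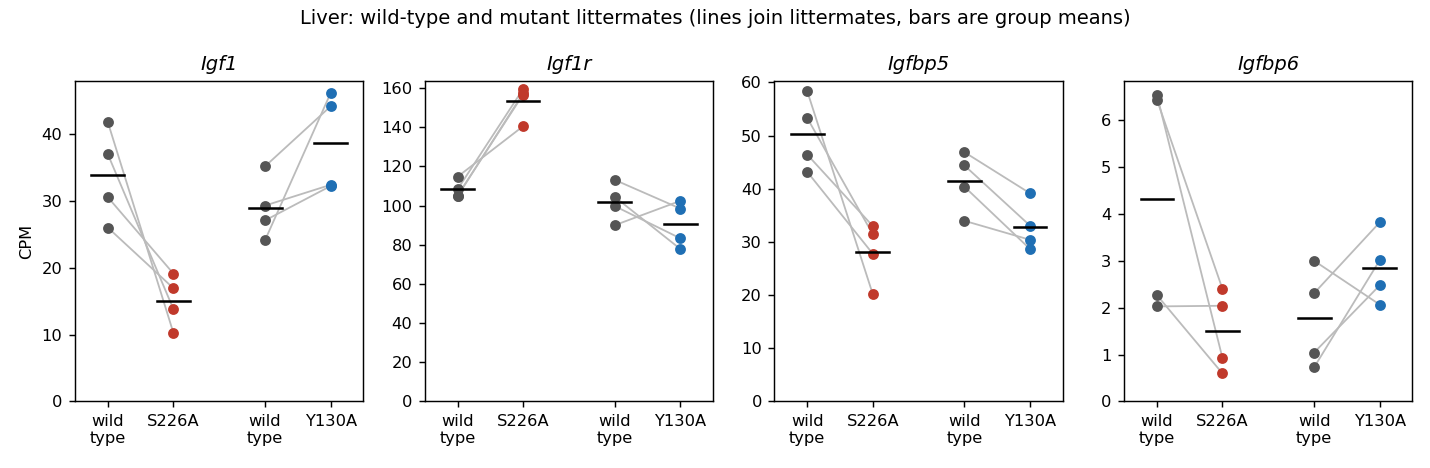
CPM in liver of Igf1, Igf1r, Igfbp5 and Igfbp6 in wild-type and mutant embryos of the S226A litters and the Y130A litters, with lines between littermates and bars at the group means (n = 4 per group). S226A livers lie below all their wild types for Igf1 and Igfbp5 and above them for Igf1r, while Igfbp6 overlaps and the Y130A groups overlap for all 4 genes. Of all genes tested, 11.88% did not overlap between S226A and wild-type livers.

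Igfbp1 and Igfbp2, the abundant binding proteins of the liver, did not pass the test without litters and passed it with them. Igfbp1 was at 1053, 547.5, 1169 and 1319 CPM in the wild types of litters 2875, 2881, 2970 and 2972 and at 607.6, 454.0, 1057 and 636.7 CPM in the mutants. Igfbp2 was at 703.2, 301.1, 504.3 and 695.2 CPM in the wild types and at 366.6, 226.9, 467.4 and 447.5 CPM in the mutants. For both genes the mutant was the lower littermate in 4 of 4 litters, yet the groups overlapped, and litter 2881 was lowest in both genotypes. The log2 fold change of Igfbp1 was -0.57 (SE 0.386, adjusted p = 0.389), and with the litter as a block it was -0.55 (SE 0.119, adjusted p = 0.0069). For Igfbp2 these values were -0.55 (SE 0.284, adjusted p = 0.231) and -0.51 with the block (SE 0.105, adjusted p = 0.0048), in a fit that called 10.7% of all genes. In this comparison 2 of 4 littermate pairs had residuals over all genes that correlated above 0.1.

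Igfbp4 had a log2 fold change of -0.21 (SE 0.0734, adjusted p = 0.0573), with 534.3, 458.8, 540.7 and 540.5 CPM in the wild types and 459.2, 378.0, 500.0 and 458.7 CPM in the mutants. Its call changed with the setting, since the adjusted p was 0.0395 in DESeq2 and 0.0206 without the 2 livers that held squamous transcripts. Igfbp3, the main carrier in the plasma of the adult, was at 65.9 CPM on average in the wild types and 70.8 in the mutants (adjusted p = 0.757). Igfbp7 was at 30.0 and 33.5 CPM (adjusted p = 0.325), and its exons overlap those of Polr2b on the opposite strand, so that reads of the pair cannot be told apart where strand was not counted. Igfbpl1 had no read in any S226A liver.

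Transcripts of other cell types differed in the same S226A livers. Of 12 macrophage genes 11 were lower and none was higher (summed CPM 301.2 to 429.0 in the mutants, 1089 to 1271 in the wild types), with Csf1r at 65.0 to 80.2 CPM against 213.0 to 241.6, and Vsig4, a receptor of Kupffer cells, had no read in any S226A liver. All 6 neutrophil genes were higher (8444 to 9093 against 2889 to 3482 CPM). None of 6 hepatocyte genes was called, but their sum was lower in every mutant (146592 to 173614 against 176784 to 182241 CPM), as was that of 6 hepatic stellate cell genes, none of them called (546.8 to 699.6 against 724.0 to 809.5 CPM, and also lower in Y130A liver, at 673.5 to 783.2 against 787.9 to 962.5 CPM), and of 6 endothelial genes, 2 of them lower (310.2 to 368.9 against 400.5 to 443.5 CPM). Fibroblast genes overlapped (789.1 to 1032 against 1002 to 1592 CPM, none of 6 called), and 6 of 7 squamous genes were lower, with the wild type of litter 2881 at 181.2 CPM. The part of these cells in the differences of Igf1, Igf1r and the binding proteins was not tested.

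Igf1 was not called in the other S226A tissues. In S226A brain 4 of 12 macrophage genes were lower and 1 higher (65.5 to 77.5 against 101.5 to 107.3 CPM), and Igf1 was at 8.87, 11.6, 11.4 and 11.7 CPM in the mutants of litters 2875, 2881, 2970 and 2972 and at 10.9, 10.4, 14.6 and 9.67 CPM in the wild types. In S226A lung 2 macrophage genes were lower and 2 higher (142.8 to 180.8 against 175.9 to 232.1 CPM), with Igf1 at 67.9, 52.2, 61.9 and 44.4 CPM in the mutants and 48.8, 64.8, 55.9 and 51.0 CPM in the wild types. Csf1r was at 8.095 to 10.7 CPM in the S226A brains against 24.6 to 26.1 in the wild types. In lung it was at 23.1 to 28.4 against 52.85 to 55.98 CPM. Sums of 6 microglia genes were 34.7 to 37.5 against 56.1 to 65.5 CPM in brain (3 lower, 0 higher) and 60.8 to 69.5 against 72.0 to 91.1 CPM in lung (1 lower, 0 higher). The log2 fold change of Igf1 was -0.07 in brain (SE 0.189) and 0.04 in lung (SE 0.178), and whether these differ from that in liver was not tested.

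**Figure D3:**
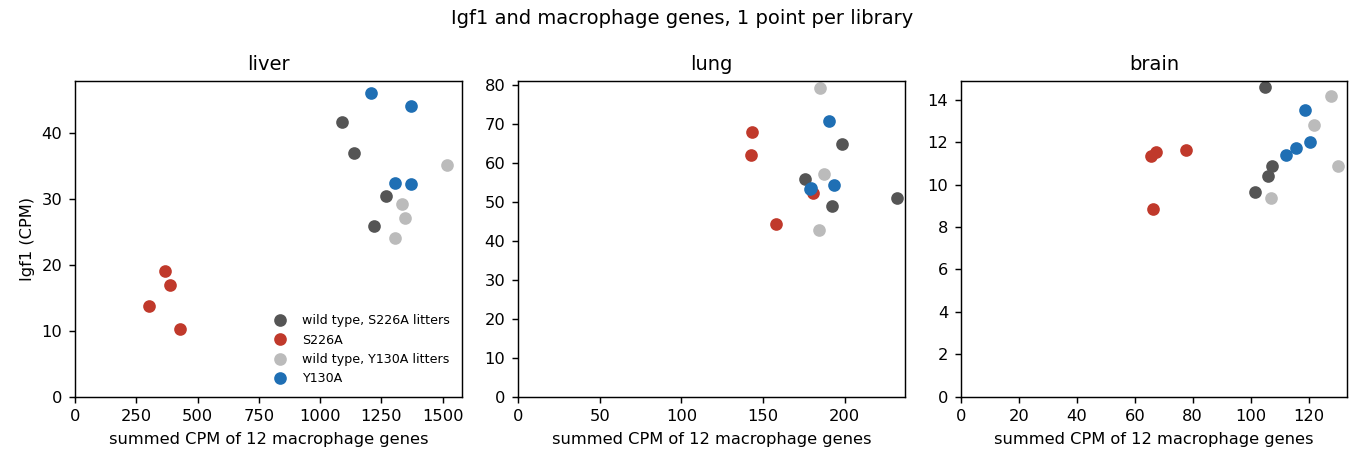
Igf1 in CPM against the summed CPM of 12 macrophage genes in liver, lung and brain, with 1 point per library and colours for genotype and litter set. In liver the 4 S226A libraries lie apart from the other 12 on both axes, whereas in brain they lie apart along the macrophage axis and within the range of the others or just below it (8.87 CPM) for Igf1.

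In Y130A liver none of the 10 genes was called in edgeR, where 0.272% of all genes were called, and DESeq2 called 0 of the 10. In edgeR 3 of the 10 had an unadjusted p below 0.05, as had 1558 of the 16892 genes tested. Igf1 was at 32.2, 44.1, 46.1 and 32.4 CPM in the mutants of litters 2848, 2851, 2974 and 3069 and at 27.1, 35.2, 24.1 and 29.3 CPM in the wild types. The mutant was the higher littermate in 4 of 4 litters, but the groups overlapped and the test did not call it (log2 fold change 0.42, SE 0.179, adjusted p = 0.418). Igfbp5 was lower in 4 of 4 litters, with a log2 fold change of -0.34 (SE 0.152, adjusted p = 0.475), and Igfbp6 had one of 0.65 (SE 0.321, adjusted p = 0.538).

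The effect in S226A liver minus that in Y130A liver was tested as an interaction, in which 3 of the 10 genes were called where 5.9% of all genes were. The mutations came from separate litter sets that also differed in depth, so mutation and litter set cannot be told apart in this test. The difference was -1.60 on the log2 scale for Igf1 (SE 0.260, adjusted p = 6.2e-05), 0.67 for Igf1r (SE 0.172, adjusted p = 0.0119) and -2.12 for Igfbp6 (SE 0.486, adjusted p = 0.0047). That of Igfbp6 was not called with the litter as a block (adjusted p = 0.0823). Igfbp5, lower in the S226A livers by the test above, was not called in the interaction (-0.51, SE 0.220, adjusted p = 0.185). The same interaction called 0 of the 10 in lung in edgeR, where 0.308% of all genes were called, and DESeq2 called 1, Igfbpl1. In edgeR 2 had an unadjusted p below 0.05 (Igfbp3 and Igfbpl1), as had 1655 of the 16892 genes tested. In brain the interaction called 0 in edgeR, where 0.0829% of all genes were called, and 0 in DESeq2. There 0 of the 10 had an unadjusted p below 0.05 in edgeR, against 386 of the 16892 genes tested.

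**Figure D4:**
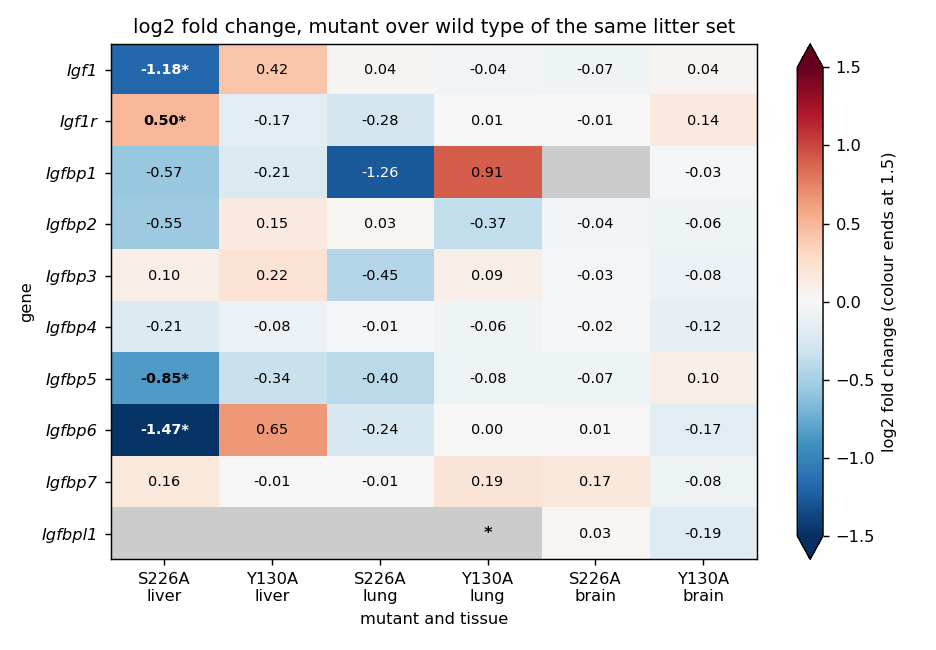
Log2 fold change of each mutant over the wild types of its litter set for the 10 genes in 6 comparisons, with an asterisk and bold type where edgeR called the gene and grey where the groups averaged under 10 reads or all libraries of a group had at most 3. Of the asterisks 4 stand in the S226A liver column (-1.18, 0.50, -0.85 and -1.47), and the only other marks Igfbpl1 in Y130A lung.

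Igfbp1 and Igfbp2 spread widely over the litters in liver. Over the Y130A litters Igfbp1 was at 692.6, 1322, 454.9 and 866.2 CPM in the mutants of litters 2848, 2851, 2974 and 3069 and at 952.3, 1512, 526.9 and 878.0 CPM in the wild types. The highest litter exceeded the lowest by a ratio of 2.87 in the wild types and 2.91 in the mutants, while littermates differed by ratios of 1.01 to 1.38, with the mutant lower in 4 of 4 litters. In the S226A litters the highest exceeded the lowest by 2.41 in the wild types and 2.33 in the mutants, and littermates differed by ratios of 1.11 to 2.07. In the Y130A set the highest and lowest litters were the same in both genotypes. Igfbp2 spread by 3.74 over the wild-type and 2.602 over the mutant livers of the Y130A litters, at 193.9, 422.4, 504.5 and 327.2 CPM in the mutants and 146.4, 329.5, 286.0 and 547.3 CPM in the wild types. There littermates differed by ratios of up to 1.76, and litter 2848 was lowest in both genotypes. Litter 2881 of the S226A set was lowest for Igfbp1 and for Igfbp2 in both genotypes.

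**Figure D5:**
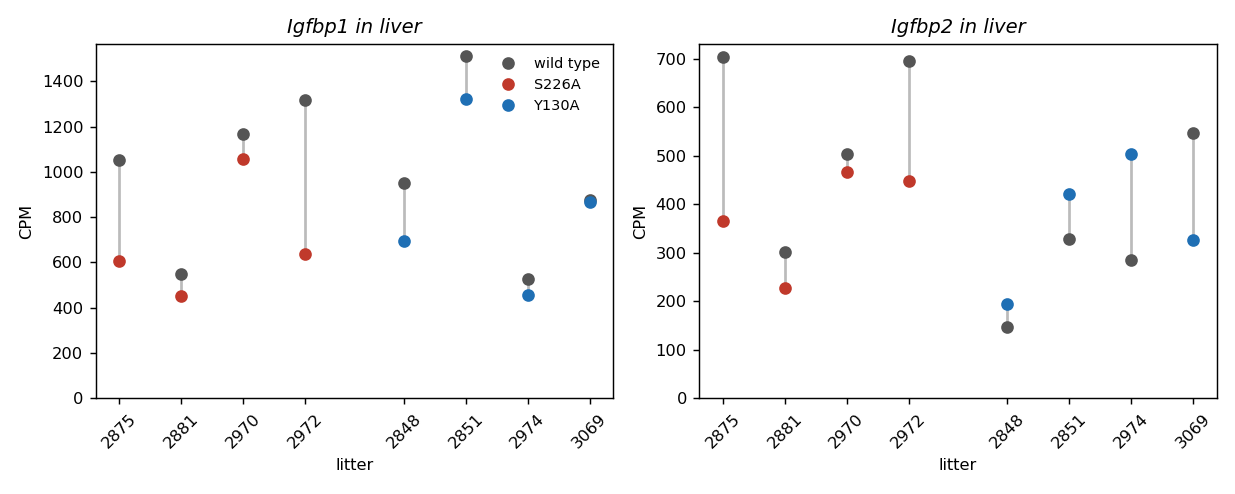
CPM of Igfbp1 and Igfbp2 in the livers of the 8 litters, with littermates joined by a line. Igfbp1 ranges from 454.0 to 1512 CPM over the 16 livers and the mutant is the lower littermate in all 4 litters of each set, and for Igfbp2 the mutant is lower in 4 of 4 S226A litters and higher in 3 of 4 Y130A litters.

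In S226A lung none of the 10 genes was called in edgeR, where 1.88% of all genes were called, and DESeq2 called 0 of the 10. An unadjusted p below 0.05 in edgeR was found for 2741 of the 16892 genes tested and for 3 of the 10. These 3 were Igfbp3, Igfbp5 and Igf1r. Igfbp5 was at 269.0, 169.7, 272.1 and 193.7 CPM in the wild types of litters 2875, 2881, 2970 and 2972 and at 234.7, 146.5, 140.7 and 161.8 CPM in the mutants, lower in 4 of 4 litters with overlap between the groups (log2 fold change -0.40, SE 0.148, adjusted p = 0.148). Igf1r was at 332.9, 175.7, 296.2 and 187.9 CPM in the wild types and at 230.6, 180.4, 199.8 and 207.8 CPM in the mutants, so that 2 wild-type lungs stood above all other lungs (log2 fold change -0.28, SE 0.121, adjusted p = 0.232). Igfbp3 was at 57.3, 44.0, 32.5 and 71.6 CPM in the wild types and 39.9, 31.6, 32.7 and 46.8 CPM in the mutants (log2 fold change -0.45, SE 0.158, adjusted p = 0.137). Each of these 3 passed the threshold when certain single lungs were left out. Igf1r passed it without the wild type of litter 2972 (adjusted p = 0.0477) or 2881 (0.0198), and Igfbp3 without the wild type of litter 2970 (0.0304). Igfbp5 passed it without the wild type of litter 2881 (0.0268) or the mutant of litter 2875 (0.0212). For transposable elements the paper names a wild-type lung of this comparison as a possible outlier. Its label there matches the wild-type lung of litter 2970, except that digits of the litter number are swapped. The wild-type lung of litter 2970 held the highest Igfbp5 and was among the 2 with high Igf1r, and neither gene was called without it.

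In Y130A lung 1 of the 10 genes was called, Igfbpl1, where 0.0178% of all genes were called (3 genes in all). It had 3, 0, 0 and 0 reads in the mutants of litters 2848, 2851, 2974 and 3069 and 9, 32 and 18 reads in the wild types of the first 3, that is 0.192, 0.652 and 0.362 CPM. The mutants lay at or under the floor of 3 reads per library, and the wild-type mean of 0.402 CPM was 6.23 times that floor. This ratio leaves out the spread of the wild types and is not a lower bound. In litter 2848, where both littermates had reads, the wild type was 3.83 times the mutant. The adjusted p of the call was 0.0249 in edgeR. Igfbpl1 had few reads in the lungs of the S226A litters too, with 0, 0, 3 and 0 reads in the wild types and 6, 0, 0 and 0 in the mutants of litters 2875, 2881, 2970 and 2972. The S226A lung of litter 2875 was at 0.279 CPM, above the lowest wild type of the Y130A set, and the wild type of litter 2970 was at 0.164 CPM. The wild-type lungs of the S226A litters were therefore also lower than those of the Y130A litters (adjusted p = 0.0043), and the call in Y130A lung was lost when the wild type of litter 2851 (adjusted p = 0.507), the wild type of litter 2974 (0.0871) or the mutant of litter 3069 (0.0505) was left out. In fits of the Y130A lungs alone, with or without the litter as a block, Igfbpl1 did not pass the filter on low counts and was not tested, so that its test in lung rests on reads in the brain carrying it past the filter. Neuron genes did not stand apart in these lungs, with sums of 44.7 to 60.1 CPM in the mutants and 48.8 to 51.1 in the wild types. Igfbp7 was the only other of the 10 genes whose groups did not overlap there, as in 4.16% of all genes tested, at 113.4, 120.7, 130.5 and 118.2 CPM in the mutants and 101.1, 108.8 and 107.5 in the wild types, and it was not called (log2 fold change 0.19, SE 0.101, adjusted p = 1).

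Igfbp1 was scarce in lung. It reached 4.36 CPM, on 261 reads, in the Y130A lung of litter 2848, where Alb was at 852.1 CPM, and it was at 0.0412 to 2.07 CPM in the other 14 lungs, where Alb was at 5.77 to 301.5 CPM. The part of hepatocyte RNA in the Igfbp1 reads of lung was not tested.

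In brain none of the 10 genes was called in either mutant in edgeR, where 0.243% of all genes were called in S226A and 0.00592% in Y130A. DESeq2 called 0 of the 10. None of the 10 had an unadjusted p below 0.05 in edgeR, against 383 of the 16892 genes tested in S226A and 375 in Y130A. Igfbpl1, whose level was highest in this tissue of the 3, was at 118.4, 150.5, 116.6 and 128.5 CPM in the wild types of litters 2875, 2881, 2970 and 2972 and 125.7, 147.6, 146.3 and 105.7 in the S226A brains (log2 fold change 0.03, SE 0.182). It was at 133.3, 129.8, 137.9 and 160.2 CPM in the Y130A brains of litters 2848, 2851, 2974 and 3069 and 169.9, 143.1, 171.6 and 155.7 in their wild types (log2 fold change -0.19, SE 0.181, adjusted p = 1). In both sets the groups overlapped. Igfbp2 was at 125.1 to 140.4 CPM in S226A brain against 132.5 to 138.4 in the wild types and at 171.4 to 189.3 CPM in Y130A brain against 176.1 to 198.1.

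Wild-type libraries of the 2 litter sets, which differ in litter, depth and any handling that went with them, also differed from each other for some of these genes. In liver 1 of the 10 was called, Igfbp6, where 13.1% of all genes were, and it was higher in the S226A litters by 1.24 on the log2 scale (SE 0.330, adjusted p = 0.0113). In lung 3 were called, Igf1r, Igfbp3 and Igfbpl1, where 20.1% of all genes were. Igf1r was higher in the wild-type lungs of the S226A litters by 0.97 (SE 0.133, adjusted p = 4.9e-06) without overlap, as in 22.02% of all genes tested. In brain 2 were called, Igfbp4 and Igfbp7, both lower in the S226A litters (-0.28 and -0.33), where 5.98% of all genes were. In a fit of only the libraries compared, 0 were called in liver (adjusted p = 0.154 for Igfbp6), where 3.65% of all genes were, 0 in lung (0.0509 for Igf1r and 0.181 for Igfbp3, with Igfbpl1 not tested), where 1.81% were, and 6 in brain, where 24.8% were. Litter, depth and handling cannot be told apart in this comparison, and mutants were compared with wild types of their own litter set, which in Y130A lung held no wild type of litter 3069.

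Among 40 other genes of the insulin-like growth factor axis, 38 were tested and 5 were called in S226A liver (11.7% of all genes were called), 1 higher and 4 lower, with a median log2 fold change of -0.08 against -0.01 over all genes. Of the growth hormone axis, Ghr, the growth hormone receptor, fell from 144.2 ± 14.3 to 122.7 ± 5.58 CPM (SD, n = 4), and Socs2, a feedback inhibitor of growth hormone signalling, fell from 38.7 ± 5.70 to 27.6 ± 5.40 CPM. Of the signalling genes, Grb10, an adaptor that restrains the receptors of insulin and Igf1, fell from 2902 ± 102.5 to 2389 ± 222.7 CPM and Foxo3, a transcription factor held out of the nucleus by Akt, from 328.3 ± 24.7 to 273.0 ± 20.2 CPM. Akt1, the kinase downstream of the receptor, rose from 121.9 ± 5.57 to 148.3 ± 7.48 CPM. The adjusted p-values in edgeR were 0.033 for Ghr, 0.0291 for Socs2, 0.0251 for Grb10, 0.0433 for Foxo3 and 0.0014 for Akt1, and Akt1 was also called in the interaction (log2 difference 0.30, adjusted p = 0.0348). These calls were not examined under the alternative fits. The serum complex and its proteases had 0 of 8 called in edgeR in S226A liver and 1 at an unadjusted p below 0.05, which 4170 of the 16892 genes tested had. Plau, the urokinase that cleaves some binding proteins, rose in S226A lung (5.17 ± 0.910 to 9.12 ± 0.684 CPM) and in S226A brain (1.94 ± 0.428 to 4.03 ± 0.689 CPM), the only call of the list in either, where 1.88% and 0.243% of all genes were called. Neutrophil genes were higher in the same tissues (4 of 6 called in lung, with sums of 126.9 to 178.0 against 32.1 to 75.6 CPM, and 2 of 6 in brain, with sums of 4.83 to 12.8 against 1.65 to 4.16 CPM), and their part in the reads of Plau was not tested. In each Y130A tissue 0 of the 38 were called in edgeR, with 2 at an unadjusted p below 0.05 in liver, 0 in lung and 2 in brain, and of all genes 0.272%, 0.0178% and 0.00592% were called. Of the 16892 genes tested, 1558, 493 and 375 had an unadjusted p below 0.05 in these tissues.

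The other ligand, Igf2, was at 76.8 ± 17.1 CPM in the wild types and 52.6 ± 15.4 in the mutants of the S226A livers (log2 fold change -0.55, SE 0.259, adjusted p = 0.179). Its exons overlap those of Gm49394 on the same strand and of Igf2os on the opposite one, so that reads counted to 1 gene only may leave out part of its transcripts, and its level is uncertain.

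The genes whose levels over all 47 libraries were most like those of a member, by Pearson's r of log2(CPM + 1), followed the tissue differences, which all libraries of a tissue share. For Igfbp1 they were Cyp2d26, Apof and Kng2 (r of 0.996 to 0.997), for Igfbpl1 Pou3f4, Sox1 and Diras1 (r of 0.999), for Igfbp6 Lpcat1, BC028528 and Sftpd (0.985 to 0.988), for Igfbp7 Col4a1, Cd93 and Npc2 (0.988), and for Igf1 Dse, Maf and Cd74 (0.945 to 0.960). Within liver, after removal of the group means, the 16 libraries gave Pdk4, Klf15 and Enc1 for Igfbp1 (0.856 to 0.891) and Nr1i3, Abca6 and Ftcd for Igfbp2 (0.963 to 0.975). Within lung, the 15 libraries gave Srrm2, Tle2 and Ago2 for Igf1r (0.963 to 0.968). These are descriptions over libraries that share depth and litter.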

How the data were processed

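The authors aligned the reads with STAR 2.6.0b to GRCm38 with the GENCODE M19 annotation and deposited read counts per gene, without normalization. FastQC 0.11.5 and Trim Galore 0.6.5 are named in the submitters' processing notes, which strand was counted is not given in the sources used here, and 1 wild-type lung that the authors left out was not analysed here. Groups come from the sample labels, and the litter is the first part of each title. Total counts were 15722147 to 54885020 per library, and floors of 3 reads cover counting error only.

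Counts of all 47 libraries were fitted together in edgeR 4.0.16 (R 4.3.3) with TMM scaling, filterByExpr (minimum count 10, minimum total 15), 1 coefficient for each of 12 groups and the quasi-likelihood test, with Benjamini-Hochberg adjustment over 16892 genes. SE was derived from the F statistic of the test. All 10 genes, the list of 40 related genes and the marker lists were named throughout, and they were chosen with earlier results of these data known. RPKM used the exon length in GENCODE M21, and of 20456 gene rows 20424 matched it. The script was tested on simulated data. No replicate pair agreed within sampling noise (lowest chi-square per degree of freedom 4.09 over 69 pairs).

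Littermates pair by litter: 18 of 23 littermate pairs had residuals correlated above 0.1, against 5 of 69 other pairs. By tissue, S226A had 2 of 4 such pairs in liver, 3 in lung and 2 in brain, and in Y130A every pair passed. Alternatives were DESeq2 1.42.0, RLE size factors, no filter, a fit of only the libraries compared, the litter or embryo as a block, stringent criteria, each library left out and, chosen after seeing the data, leaving out the 2 livers with squamous transcripts.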

Additional observations from a re-analysis of the deposited data

Results flagged for a closer look

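In the 107 groups of 4 libraries examined, the Dixon ratio marked a single library as far from the rest in 10. Chance marks about 1 in 20 groups, but 4 of the 10 are Igfbpl1 in tissues where the other 3 libraries had no read, which fixes the ratio at 1, and 6 remain without them. Those 4 are 0.131 CPM in the wild-type liver of litter 2881, 0.164 in the wild-type lung of litter 2970, 0.279 in the S226A lung of litter 2875 and 0.0501 in the Y130A lung of litter 2848. Litter 2881 held 3 more: the lowest Igf1r of the S226A livers (140.5 CPM, against a mean of 157.8 in the others), the highest Igfbp2 of the S226A lungs (29.4 CPM against 13.1) and the lowest Igfbp4 of the wild-type livers of its set (458.8 CPM against 538.5), which is the liver with squamous transcripts. Igf1 was lowest in the S226A brain of litter 2875 (8.87 CPM against 11.5) and highest in the Y130A lung of litter 2848 (70.7 CPM against 53.7). Igfbp3 was lowest in the wild-type liver of litter 2848 (57.8 CPM against 72.6).

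The differences of S226A and of Y130A livers from their own wild types were unlike by the interaction test in edgeR for Igf1 (-1.60 on the log2 scale, adjusted p = 6.2e-05), Igf1r (0.67, adjusted p = 0.0119) and Igfbp6 (-2.12, adjusted p = 0.0047), of 30 interactions examined over 3 tissues. Mutation and litter set, which also differ in depth, cannot be told apart in this test. That of Igfbp6 was not called with the litter as a block (adjusted p = 0.0823) or in a fit of only these libraries (0.120). For Igf1 the S226A embryo was the lower littermate in 4 of 4 litters and the Y130A embryo the higher in 4 of 4.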

How the results depend on the processing

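Of 1404 alternative values of the 10 genes in the comparisons of mutants with littermates and between mutants, 1385 stayed on their side of the threshold, 12 passed it newly and 7 no longer passed it. The sign changed or the value was 0 in 84, none of them called in either fit. Igf1, Igf1r and Igfbp5 in S226A liver kept their call under all 14 alternatives. With the litter as replicate block, members called were 5 in S226A liver (4 without it, with 10.7% of all genes called in the blocked fit), 0 in Y130A lung (1 without it, Igfbpl1, which the filter on low counts left out of the blocked fit and which was therefore not tested there) and 2 in the interaction in liver (3 without it), and the count changed in no other comparison of a mutant or between mutants.

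By the stringent criteria the members called were 2 in S226A liver and 0 in Y130A lung, and in a fit of only the libraries compared, which did not test Igfbpl1, 0 in Y130A lung. DESeq2 called 1 in the interaction in lung. Leaving out single libraries gave 0 to 2 members in S226A lung and 0 to 1 in Y130A lung. Between wild-type sets, leaving out single libraries gave 1 to 3 members in liver (3 without the wild type of litter 3069, 2 without that of litter 2848), 2 to 5 in lung (5 without the wild type of litter 2881) and 0 to 2 in brain. In a fit of only the libraries compared these counts were 0 in liver (3.65% of all genes called), 0 in lung (1.81%) and 6 in brain (24.8%), and in brain RLE size factors, no filter and DESeq2 gave 1 each. The causes were not tested. Igfbp6 in liver and brain, and Igfbp1 and Igfbpl1 outside their main tissue, rested on few reads, and the part of depth in their spread was not tested.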
